A study of Mus musculus with 24 samples.

Results

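The genes described here lie on mouse chromosome 13 within 20 Mb of the start of Hfe, the gene that had been disrupted. They were chosen by position alone: a probe set was taken when the array annotation gave it 1 gene symbol and the RefSeq gene table (assembly GRCm38.p6, joined by gene identifier) placed that gene's start inside the interval, with Hfe, Bmp6 and Uqcrfs1 left out. This gave 413 of the 45101 probe sets of the array, for 222 genes, 92 of them on the side of lower coordinates and 130 on the side of higher coordinates. Distances below are signed, negative on the lower side. Of the 413 probe sets, 263 probe sets of 140 genes passed the filter on low signals and were tested, and the other 150 did not.

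RNA of liver and of duodenum came from 12 male mice aged 7 weeks, 3 for each of 4 groups: wild-type and Hfe-/- mice of the C57BL/6 (B6) strain, and wild-type and Hfe-/- mice of the DBA/2 (D2) strain. Each tissue of each mouse was hybridized to its own Affymetrix mouse array, 24 arrays in all. The Hfe-/- mice had been bred in the animal facility of the study and the wild-type mice purchased, so that origin and genotype cannot be told apart. The strain in which the Hfe allele was first made, and the number of crosses to each background, are not given in the sources used here.

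Hfe encodes a membrane protein related to MHC class I molecules, needed for normal production of the iron hormone hepcidin, and loss of it leads to iron overload. Around it on chromosome 13 lie a large cluster of histone genes, urate and phosphate transporters of the SLC17 family, zinc finger genes, serpins of clade B, the prolactin family and a cluster of aldo-keto reductases. As general background, a gene disrupted in embryonic stem cells and moved to another strain by repeated crossing brings along the DNA on either side of it, and the alleles carried there are those of the cells in which it was made, not of the strain to which it was moved. Genes close to a disrupted gene can therefore differ between knockout and wild-type mice either through the loss of the gene or through the alleles around it. The arrays measured transcripts and typed no allele.

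The promoters shown are those of genes whose difference between D2 Hfe-/- and D2 wild-type mice was called in both tissues in the same direction. Of 6 such genes, 4 had an entry in the RefSeq promoter table (GRCm38.p6), and Stard3nl and Zkscan3 had none. Each line gives the 250 bases before the start of the gene, 5′ to 3′ on the strand of the gene. Capitals mark every match, on either strand, to 3 short motifs. The TATA box was searched as TATAAA. The sequence searched for the box bound by nuclear factor Y was CCAAT. A box of the kind bound by Sp1 was searched as GGGCGG, and is called the GC box below.
Pxdc1, chr13:34652682-34652931, minus strand: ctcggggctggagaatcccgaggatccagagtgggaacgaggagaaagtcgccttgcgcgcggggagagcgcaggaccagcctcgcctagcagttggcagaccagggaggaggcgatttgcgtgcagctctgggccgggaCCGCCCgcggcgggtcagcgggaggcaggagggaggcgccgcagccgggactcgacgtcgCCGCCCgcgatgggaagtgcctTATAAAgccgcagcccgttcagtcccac
Mplkip, chr13:17695163-17695412, plus strand: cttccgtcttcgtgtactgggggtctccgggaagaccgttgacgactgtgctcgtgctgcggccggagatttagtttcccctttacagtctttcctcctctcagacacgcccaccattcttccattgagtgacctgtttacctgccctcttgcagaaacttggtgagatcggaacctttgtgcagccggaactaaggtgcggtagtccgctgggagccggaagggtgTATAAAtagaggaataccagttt
Mcur1, chr13:43560192-43560441, minus strand: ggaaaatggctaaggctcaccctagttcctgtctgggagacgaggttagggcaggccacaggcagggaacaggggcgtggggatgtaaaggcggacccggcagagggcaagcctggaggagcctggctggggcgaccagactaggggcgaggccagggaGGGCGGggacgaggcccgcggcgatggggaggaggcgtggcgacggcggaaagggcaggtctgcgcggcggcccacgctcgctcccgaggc
Akr1c19, chr13:4233490-4233739, plus strand: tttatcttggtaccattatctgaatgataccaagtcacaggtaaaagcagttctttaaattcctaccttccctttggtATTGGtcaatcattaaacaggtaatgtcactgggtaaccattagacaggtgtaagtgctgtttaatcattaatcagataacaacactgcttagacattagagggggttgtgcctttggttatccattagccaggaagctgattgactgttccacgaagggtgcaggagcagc
The TATA match began 28 bases before the start of Pxdc1 and 23 bases before that of Mplkip, and this motif was found in 12.4% of the 32851 promoters of the table. Pxdc1 also had 2 GC boxes, on the opposite strand, and Mcur1 had 1, on the strand shown, against 32.7% of all promoters with at least 1. Akr1c19 had 1 CCAAT box, on the opposite strand, and 33.8% of all promoters had 1 or more. No motif was found in all 4. These are the bases of the C57BL/6J reference, and the sequences of the D2 mice and of the Hfe-/- mice are not known here.

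The brighter of the 2 probe sets of Hfe separated the genotypes on every array. Its signal, a linear value scaled to a common mean on each array, was 674 to 691 in B6 wild-type livers and 86.2 to 98.8 in B6 Hfe-/- livers, and 434 to 515 against 70.5 to 82.9 in D2 livers. In duodenum it was 76.6 to 98.7 against 15.7 to 25.7 in B6 mice and 95.3 to 105 against 29.0 to 45.1 in D2 mice. The dimmer probe set of Hfe was not called, and its genotypes overlapped in D2 mice, at 8.32 to 30 against 2.18 to 18.5 in liver and 0.601 to 20.9 against 0.388 to 8.11 in duodenum. Markers of the labelled tissues were high where they should be: the mean log2 signal of 6 hepatocyte genes was 13.28 to 14.02 in liver and 6.94 to 8.05 in duodenum, and that of 5 enterocyte genes was 10.67 to 11.34 in duodenum and 2.32 to 3.99 in liver. Duodenum arrays D2 Hfe-/- 2 and 3 stood apart in 5 pancreatic acinar genes, whose mean log2 signal was 5.48 and 7.41 there, 13.15 in D2 Hfe-/- 1 and 10 to 13.21 on the 9 other duodenum arrays. The summed signal of these acinar genes was 252.7 to 45530 in D2 Hfe-/- duodena and 5355 to 47520 in the other groups, no gene of the list being at 0. Counts of probe sets called in duodenum are therefore also given without them. Arrays had also been hybridized in separate runs that went partly with the groups, and for the genes described at length the difference within a run is given as well. All D2 duodenum arrays were of the same run. For them the difference is given within the station that D2 wild-type 3 shared with the D2 Hfe-/- arrays. These arrays also made the calls, so such differences are no independent check.

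Hfe-/- D2 livers differed from wild-type D2 livers at a larger share of genes near Hfe than elsewhere. Of the 263 probe sets tested, 28 probe sets of 24 genes were called, that is, had an adjusted p of at most 0.1 in limma with Benjamini-Hochberg adjustment over all 28061 probe sets tested: 18 were higher and 10 lower in Hfe-/- livers. The share was 10.6%, against 2.75% of all probe sets tested (1.35% higher and 1.4% lower). On the 20 chromosomes with the interval left out, the share ran from 1.72% to 4.49%. The typical size of a difference was little changed, with a median absolute log2 difference of 0.292 near Hfe and 0.237 over all probe sets.

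In D2 duodenum, where few genes differed between the genotypes, the interval stood out further. There 13 probe sets of 11 genes near Hfe were called, 9 higher and 4 lower, which is 4.94% against 0.378% of all probe sets (0.257% higher and 0.121% lower) and at most 1.08% on any of the 20 chromosomes outside the interval. Fewer probe sets were called in B6 mice, both near Hfe and over all probe sets. In B6 liver 9 probe sets of 7 genes were called, 3 higher and 6 lower, or 3.42% against 1.02% of all probe sets (0.542% higher and 0.481% lower). In B6 duodenum 1 probe set near Hfe was called, for Ggps1, against 3 of all 28061 (0.0107%), while 37 of the 263 (14.1%) had an unadjusted p below 0.05, against 1588 (5.66%) of all.

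**Figure D1:**
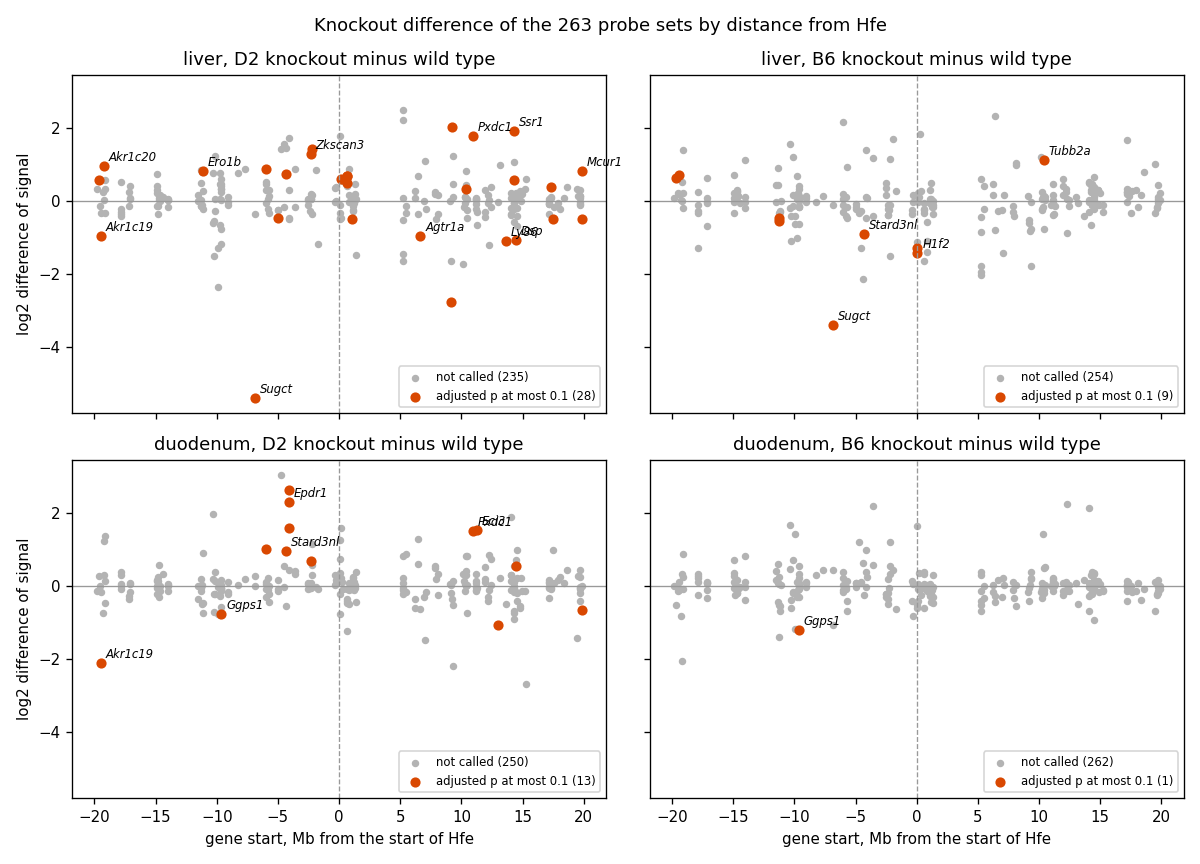
Log2 difference of signal between Hfe-/- and wild-type mice (vertical axis) against the distance of the gene's start from that of Hfe in Mb (horizontal axis), 1 point per probe set, for both tissues and both strains. Called probe sets are orange, with 28 in D2 liver, 9 in B6 liver, 13 in D2 duodenum and 1 in B6 duodenum, and they lie across the whole interval in D2 liver.

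The called genes were not gathered close to Hfe. In D2 liver the share of probe sets called was 17.2% (5 of 29, 3 of them of Cmah) from 0 to 5 Mb and 12.9% (4 of 31) from -5 to 0 Mb. The share was 14.3% (3 of 21) from -20 to -15 Mb and 14.3% (4 of 28) from 15 to 20 Mb, with a low of 2.78% (1 of 36) from -15 to -10 Mb. Beyond 20 Mb on the higher side it was 3.23% (8 of 248) up to 40 Mb and 1.79% (7 of 390) farther out. In D2 duodenum the share was 16.1% (5 of 31, 3 of them of Epdr1) from -5 to 0 Mb and 6.9% (4 of 58) from 10 to 15 Mb. Without D2 Hfe-/- 2 and 3, the 3 probe sets called in D2 duodenum were those of Akr1c19, Mcur1 and 5033403F01Rik, none of them in those bins. On the lower side 11 probe sets of 3 genes lay beyond 20 Mb, and 3 of these (27.3%) were called in each tissue. Just inside the limit, Akr1c14 (-19.65 Mb) and Akr1c19 (-19.47 Mb) were called in liver, and just outside it, at -20.07 Mb, a probe set of Asb13 had a log2 difference of 0.54 in liver and 1.01 in duodenum in D2 mice, and a probe set of Tasor2, at -20.14 Mb, had -1.56 and -1.83. At the other edge Mcur1 (19.84 Mb) was called in both tissues, and Cd83, at 20.08 Mb, had 1.54 in liver and -0.18 in duodenum, neither called.

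**Figure D2:**
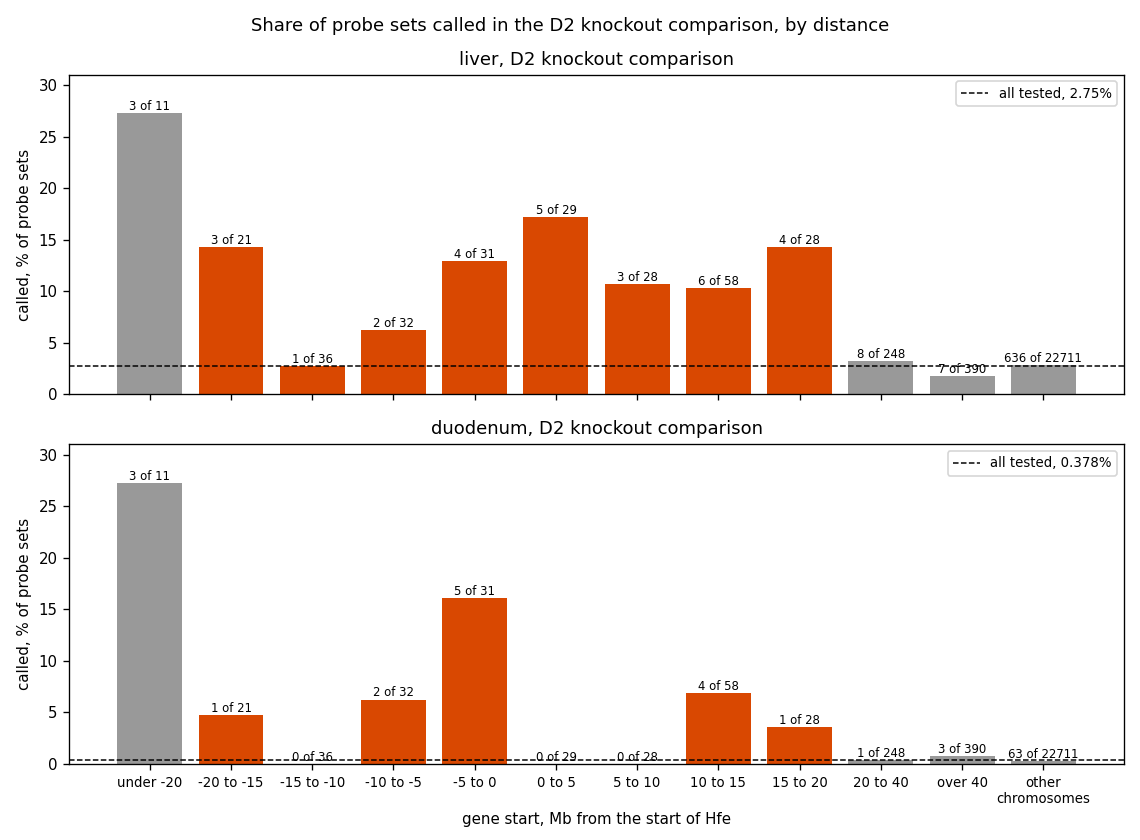
Share of tested probe sets called in the D2 Hfe-/- against wild-type comparison (vertical axis, %) by distance of the gene from Hfe in Mb (horizontal axis), with the number called written above each bar and the share over all probe sets as a dashed line. In liver the bins within 20 Mb (orange) run from 2.78% to 17.2%, and bars farther out than 20 Mb on the higher side lie near the line.

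Near Hfe, the genes that differed between strains were mostly not the same in wild-type and in Hfe-/- mice. Wild-type D2 and B6 mice and Hfe-/- D2 and B6 mice are separate animals, so the strain difference was measured on separate sets of 6 arrays per tissue, with a called probe set having an adjusted p of at most 0.01. In liver 10 probe sets near Hfe were called between the wild types (3.8%, against 4.35% of all), 2 higher in D2 mice (1.97% of all were) and 8 lower (2.39%). Between the Hfe-/- mice 12 were called (4.56%, against 4.73%), 7 higher in D2 mice (2.31% of all) and 5 lower (2.42%). Of the 10 strain differences called in wild-type livers, 1 was called in the same direction in Hfe-/- livers, while over all probe sets 717 of 1222 (58.7%) were, and on chromosome 13 beyond 20 Mb 24 of 47. The one shared gene was Nrn1. Read from the Hfe-/- side the share was 8.33% near Hfe and 54.1% over all.

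In duodenum, 4 probe sets near Hfe were called between the wild types (1.52%, against 3.37% of all), 1 higher in D2 mice (1.28% of all) and 3 lower (2.09%). Between the Hfe-/- mice 8 were called (3.04%, against 3.65%), 7 higher in D2 mice (1.79% of all) and 1 lower (1.86%). Of the 4, 0 were called in both, against 597 of 946 (63.1%) over all probe sets and 16 of 23 on chromosome 13 beyond 20 Mb. Among strain differences called in wild-type liver, the median difference in the Hfe-/- mice, counted positive when it ran in the wild-type direction, was -0.09 near Hfe and 0.891 over all probe sets, and in duodenum it was -0.252 and 1.075. Across the 263 probe sets the strain difference of the wild types and that of the Hfe-/- mice had a Pearson r of 0.027 in liver and -0.001 in duodenum, against 0.59 and 0.537 over the 649 probe sets of chromosome 13 beyond 20 Mb. These correlations are across probe sets, which are not independent, and are given as a description. No run held both Hfe-/- groups in liver or both wild-type groups in duodenum. Fitting run as a block left 2 strain calls in Hfe-/- liver, 5 in wild-type liver and 0 in both, against 128 (23.5% of the wild-type calls) over all probe sets, and in duodenum it left 0 between the wild types and 5 between the Hfe-/- mice. Without D2 Hfe-/- 2 and 3 the r in duodenum was -0.01.

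**Figure D3:**
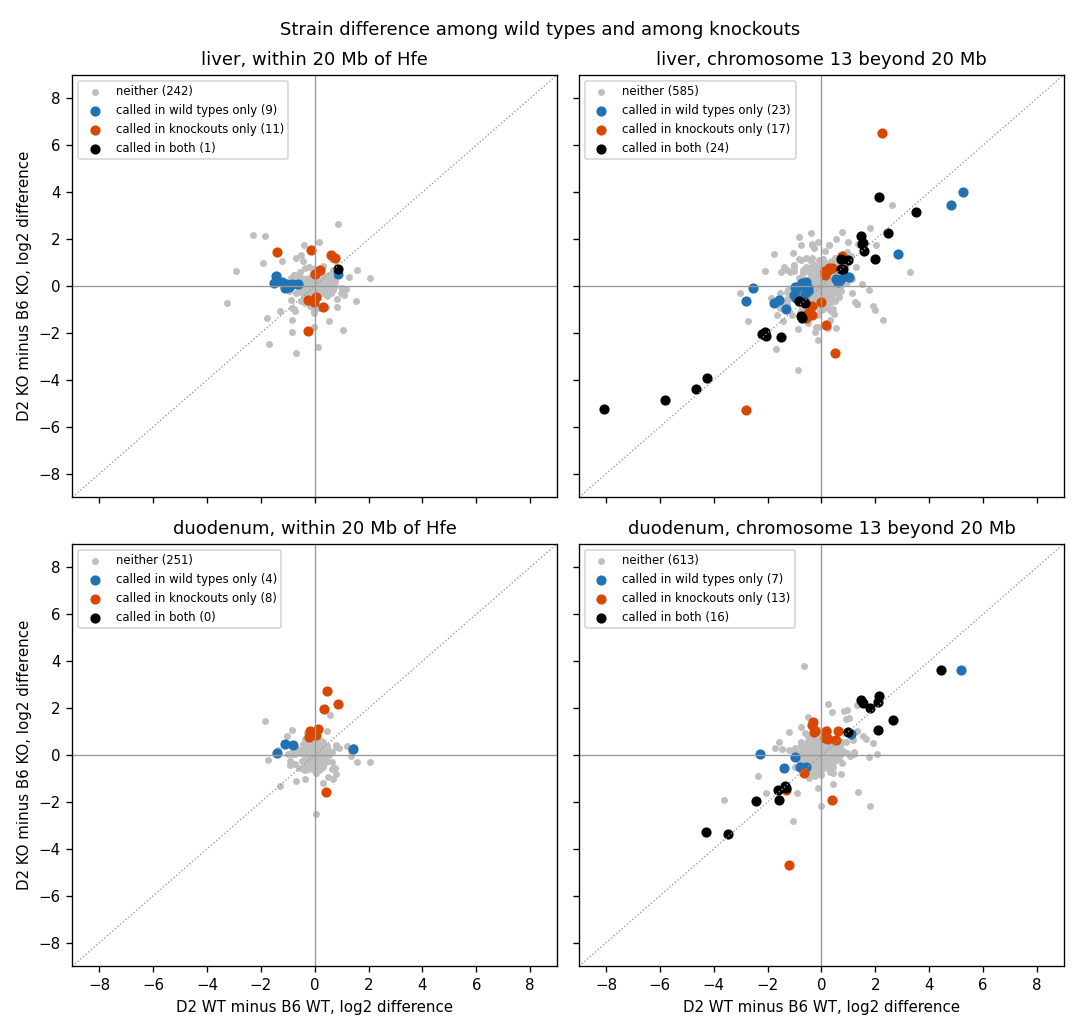
Strain difference (D2 minus B6, log2) among Hfe-/- mice on the vertical axis against that among wild-type mice on the horizontal axis, 1 point per probe set, for probe sets within 20 Mb of Hfe (left) and on chromosome 13 beyond 20 Mb (right), with calls in colour. Beyond 20 Mb the black points, called in both genotypes, follow the dotted line of equal difference (24 in liver and 16 in duodenum), and within 20 Mb there is 1 in liver and none in duodenum.

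The arrays of a tissue were also compared group by group with no model, by asking which groups had all arrays above, or all below, every other array of the tissue. The most common such pattern over all probe sets was that both D2 groups stood apart from both B6 groups, with 7.37% in liver and 7.34% in duodenum. Near Hfe it was the least common but one in liver and the least common in duodenum, with 7 of 263 (2.66%) and 3 of 263 (1.14%), while on chromosome 13 beyond 20 Mb it was 8.78% and 6.01%. The other patterns were more frequent near Hfe than over all probe sets, by little for B6 wild-type duodena. Both Hfe-/- groups stood apart from both wild-type groups in 6 probe sets in liver (2.28%, against 0.994% of all) and in 8 in duodenum (3.04%, against 0.31%). D2 wild-type mice stood apart alone in 16 (6.08%, against 3.18%) and 11 (4.18%, against 2.84%), and D2 Hfe-/- mice alone in 25 (9.51%, against 4.64%) and 19 (7.22%, against 3.95%). B6 wild-type mice stood apart alone in 14 in liver (5.32%, against 4.04%) and 5 in duodenum (1.9%, against 1.72%), and B6 Hfe-/- mice alone in 12 (4.56%, against 2.8%) and 15 (5.7%, against 2.1%). In the 15 alternatives run for liver and the 16 for duodenum the share with both D2 groups apart stayed below that of all probe sets, and the shares with D2 wild-type, D2 Hfe-/-, B6 Hfe-/- or both Hfe-/- groups apart stayed above it. B6 wild-type duodena apart were above it in 8 of the 16 and below it in the other 8. Leaving out D2 Hfe-/- 2 and 3 leaves 1 array in that group, so that standing apart is easier for any probe set. D2 Hfe-/- duodena then stood apart in 65 probe sets (24.7%, against 21.8% of all). There too the share was above that of all probe sets for both Hfe-/- groups and below it for both D2 groups. This grouping was chosen after the values were seen.

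**Figure D4:**
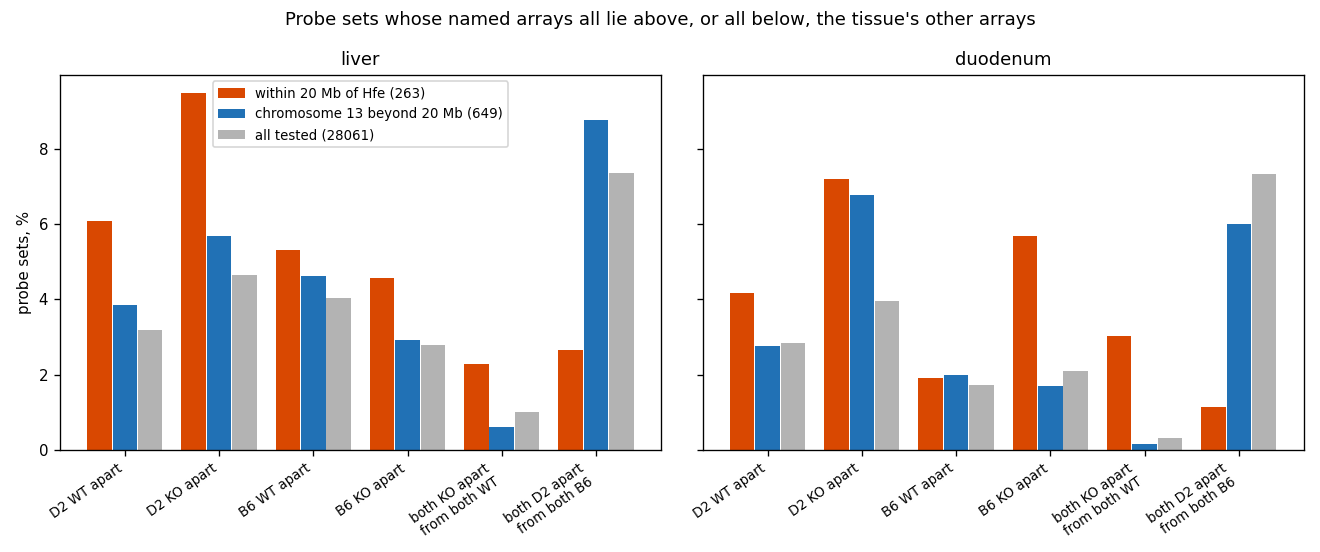
Percentage of probe sets (vertical axis) in which every array of the named group or groups lay above, or every one below, all other arrays of the tissue (horizontal axis), near Hfe (orange), on chromosome 13 beyond 20 Mb (blue) and over all probe sets tested (gray). The orange bar is the shortest of the 3 where both D2 groups stood apart from both B6 groups, at 2.66% in liver and 1.14% in duodenum.

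The first set of genes was low in D2 wild-type mice and, in D2 Hfe-/- mice, close to or above the level of B6 mice. Zkscan3, a zinc finger repressor of autophagy genes at -2.32 Mb, had in its called probe set liver signals of 483, 571 and 498 in B6 wild-type, 493, 439.8 and 498 in B6 Hfe-/-, 232, 208.5 and 219 in D2 wild-type and 528, 580.2 and 503 in D2 Hfe-/- livers. The D2 wild-type livers lay below the other 9, among which the B6 wild-type livers overlapped both Hfe-/- groups. Its difference between D2 genotypes was 2.44-fold (log2 difference 1.29, SE 0.10, adjusted p = 6.7e-06, n = 3 mice per group), and between the wild-type strains it ran the other way (log2 difference -1.23, SE 0.10, adjusted p = 8.66e-07). These comparisons share the D2 wild-type arrays. The Hfe-/- strains gave log2 difference 0.17, SE 0.10, adjusted p = 0.342, which did not pass. In duodenum the Hfe-/- effect in D2 was smaller (log2 difference 0.68, SE 0.11, adjusted p = 0.0385). Within a run in liver and within a station in duodenum, that is, against D2 wild-type 3 alone, the D2 differences were 1.29 and 0.70. Of 3 probe sets of Zkscan3, 1 was called in D2 liver, the 3 running from 0.05 to 1.29.

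Pxdc1, which encodes a PX domain protein at 10.93 Mb, showed the same order in both tissues. Its liver signals were 471, 487 and 528 in B6 wild-type, 491, 437 and 448 in B6 Hfe-/-, 148, 195 and 206 in D2 wild-type and 545, 682 and 644 in D2 Hfe-/- livers. In duodenum they were 506, 269 and 338 in B6 wild-type, 304, 399.9 and 377 in B6 Hfe-/-, 139, 128.5 and 136 in D2 wild-type and 359, 428 and 363 in D2 Hfe-/- duodena. In both tissues the 3 D2 wild-type arrays were the lowest of the 12, and in liver the 3 D2 Hfe-/- arrays were also the highest. The D2 Hfe-/- effect was log2 difference 1.78, SE 0.12, adjusted p = 3.83e-06 in liver and log2 difference 1.51, SE 0.19, adjusted p = 0.00881 in duodenum, and the wild-type strain difference was -1.45 and -1.41. The D2 effect of Pxdc1 was 1.59 within a run in liver and 1.49 within a station in duodenum. The B6 Hfe-/- effect was -0.11 (adjusted p = 0.796) in liver and -0.0008 (adjusted p = 1) in duodenum.

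Cmah, the hydroxylase that makes N-glycolylneuraminic acid, lies at 0.63 Mb and had 5 probe sets tested, of which 3 rose in D2 Hfe-/- liver and the same number were lower in D2 than in B6 wild-type liver. The probe set with the largest D2 difference read 517.5, 506 and 498 in B6 wild-type, 477, 386 and 425 in B6 Hfe-/-, 317, 244 and 297 in D2 wild-type and 371, 445 and 584 in D2 Hfe-/- livers. All D2 wild-type values were below the other 9, and the D2 Hfe-/- effect was log2 difference 0.69, SE 0.14, adjusted p = 0.0295, or 0.63 within a run, while another of the called probe sets went from 0.68 to 0.41. Eci3, an enoyl-CoA isomerase of fatty acid oxidation at 11.24 Mb, did this in duodenum, with 372, 252 and 284 in B6 wild-type, 253, 415 and 252 in B6 Hfe-/-, 157, 109.8 and 157.5 in D2 wild-type and 330.2, 484 and 422 in D2 Hfe-/- duodena (log2 difference 1.54, SE 0.22, adjusted p = 0.0204). Mplkip, a protein named for its interaction with the mitotic kinase PLK1, lies at -6.01 Mb and did so in both tissues at low signals. In liver the D2 wild-type arrays read 45.9, 28.5 and 39 and the other 9 read 47.7 to 83.7, and in duodenum 33.4, 31.1 and 31.7 and 49.1 to 71.9. Its D2 Hfe-/- effect was 0.87 in liver (adjusted p = 0.0849) and 1.003 in duodenum (adjusted p = 0.037), while the other probe set of the gene gave 0.30 and -0.08. Ero1b, an oxidase of the endoplasmic reticulum at -11.14 Mb, also rose in D2 liver, though its D2 wild-type livers overlapped the B6 Hfe-/- livers, from 129, 93.5 and 142 to 265, 180.2 and 199 (log2 difference 0.82, SE 0.22, adjusted p = 0.0867).

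A second set differed in D2 Hfe-/- mice from all 3 other groups. Ssr1, a subunit of the translocon-associated protein complex that works where secreted proteins enter the endoplasmic reticulum, lies at 14.27 Mb. The probe set of largest difference read 165, 148 and 129 in B6 wild-type, 172, 163 and 184 in B6 Hfe-/-, 145, 129.8 and 122 in D2 wild-type and 430.4, 511 and 552 in D2 Hfe-/- livers, a 3.75-fold rise in D2 Hfe-/- liver (log2 difference 1.91, SE 0.13, adjusted p = 2.78e-06) with no overlap with any other group. A further probe set of Ssr1 was called as well (0.57), and the 4 probe sets ran from -0.04 to 1.91. Dsp, desmoplakin of the desmosome, lies close by at 14.45 Mb and moved the other way. Its 1 probe set called in liver read 405, 421 and 452 in B6 wild-type, 468, 532.5 and 402 in B6 Hfe-/-, 496, 556 and 528 in D2 wild-type and 240.5, 244 and 274 in D2 Hfe-/- livers (log2 difference -1.06, SE 0.11, adjusted p = 0.000153), and the 3 probe sets of Dsp ran from -1.06 to 0.22 in liver. Within a run the D2 differences of Ssr1 and Dsp were 2.02 and -1.06. In D2 duodenum another probe set of Dsp rose (log2 difference 0.55, SE 0.10, adjusted p = 0.0763).

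Agtr1a, the angiotensin II receptor of type 1a at 6.63 Mb, read 1560.0, 1798 and 1531 in B6 wild-type, 1453, 1400.0 and 1180.0 in B6 Hfe-/-, 1724, 1559 and 1574 in D2 wild-type and 884, 774 and 856 in D2 Hfe-/- livers. The 3 D2 Hfe-/- livers lay below all others, a 1.93-fold fall (log2 difference -0.95, SE 0.10, adjusted p = 0.000197), and the B6 Hfe-/- livers also lay below both wild-type groups without passing the test (log2 difference -0.28, SE 0.10, adjusted p = 0.275). Epdr1, an ependymin-related lysosomal and secreted protein at -4.11 Mb, was low in duodenum except in D2 Hfe-/- mice. The probe set of largest difference read 18.7, 22.1 and 28.2 in B6 wild-type, 40.5, 22.2 and 29.3 in B6 Hfe-/-, 32.2, 31 and 31.1 in D2 wild-type and 121, 258.5 and 238 in D2 Hfe-/- duodena, a 6.21-fold rise (log2 difference 2.63, SE 0.29, adjusted p = 0.00492). All 3 probe sets of Epdr1 were called, with log2 differences of 1.58 to 2.63. The D2 difference was -0.91 within a run for Agtr1a and 2.65 within a station for this probe set of Epdr1. Gmnn, an inhibitor of replication licensing, also fell in D2 Hfe-/- liver (-0.50), to below all other livers. Further falls called there were those of Vps41, a subunit of the HOPS tethering complex (-0.47), and Elovl2, an elongase of polyunsaturated fatty acids (-0.48). Neither set D2 Hfe-/- livers apart from all 3 other groups. For Vps41 both Hfe-/- groups lay below both wild-type groups. For Elovl2 the D2 effect minus the B6 effect was -0.15 in limma (adjusted p = 0.841).

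Ly86, a secreted partner of an immune cell receptor at 13.64 Mb, fell from 79.7, 114 and 101 to 55.1, 32 and 53.4 in D2 liver (log2 difference -1.09, SE 0.26, adjusted p = 0.056). Macrophage and sinusoidal endothelial markers moved with it: the mean log2 signal of 3 of them was 8.42 to 8.93 in D2 wild-type and 8.21 to 8.38 in D2 Hfe-/- livers, with summed signals of 1104 to 1470 and 915.4 to 1082 and none at 0. Their part in the fall of Ly86 was not tested. In whole tissue, fewer cells of a type and less RNA per cell cannot be told apart.

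Fewer genes differed between genotypes in both strains. Sugct, a CoA-transferase of glutarate metabolism at -6.84 Mb, was far lower in Hfe-/- than in wild-type liver for 1 of its probe sets. This probe set read 120.1, 114 and 130.4 in B6 wild-type, 12.2, 12.4 and 10.6 in B6 Hfe-/-, 166, 187 and 173 in D2 wild-type and 7.46, 1.93 and 5.17 in D2 Hfe-/- livers. The 6 wild-type livers lay between 114 and 187 and the 6 Hfe-/- livers at 12.4 or less, a log2 difference of -3.38 in B6 (SE 0.39, adjusted p = 0.000949) and -5.38 in D2 (SE 0.39, adjusted p = 5.6e-06). Within a run, which for B6 means the wild-type livers against B6 Hfe-/- 1, the differences of Sugct were -3.32 and -5.36. The other probe set of Sugct did not follow, with -0.12 and -0.34. With signals this low the size of the D2 fall is poorly fixed, and it was -3.20 with 16 added to each signal.

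Ggps1, geranylgeranyl diphosphate synthase at -9.65 Mb, fell in the duodenum of both strains. Its signals were 157, 138 and 139 in B6 wild-type, 55, 67.7 and 66.5 in B6 Hfe-/-, 163, 114 and 118 in D2 wild-type and 69.5, 82 and 77.2 in D2 Hfe-/- duodena (log2 difference -1.20, SE 0.16, adjusted p = 0.0343 in B6 and log2 difference -0.77, SE 0.16, adjusted p = 0.0888 in D2). All 6 Hfe-/- duodena lay below all 6 wild-type duodena for this probe set, and 1 of the 4 probe sets of the gene was called. Ggps1 gave -1.39 within a run in B6 and -0.63 within a station in D2. Its call was lost in 7 of 19 alternatives in B6 and in 12 of 19 in D2. Akr1c14, a 3-alpha-hydroxysteroid dehydrogenase at -19.65 Mb, rose in the liver of both strains, from 1359, 1212 and 1467 to 1896, 2295 and 2048 in B6 (0.63, adjusted p = 0.0184) and from 1617, 1579 and 1532 to 2022, 2648 and 2374 in D2 (0.57, adjusted p = 0.0193).

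A few genes went opposite ways in the strains. Stard3nl, a late endosomal relative of the cholesterol-binding protein STARD3 at -4.34 Mb, fell in B6 and rose in D2 liver, with 151, 139 and 149.5 in B6 wild-type, 70.2, 83.6 and 81.3 in B6 Hfe-/-, 59.6, 40.5 and 55.8 in D2 wild-type and 75.5, 100.3 and 81.5 in D2 Hfe-/- livers. The B6 wild-type livers were highest, the D2 wild-type livers lowest, and the Hfe-/- livers of both strains overlapped at 70.2 to 100.3 (log2 difference -0.91, SE 0.18, adjusted p = 0.0427 in B6 and log2 difference 0.73, SE 0.18, adjusted p = 0.0599 in D2). Within a run Stard3nl gave -1.06 in B6 and 0.61 in D2 liver. In duodenum it rose in D2 mice from 131, 148 and 149.7 to 255, 294 and 289, and the B6 difference of -0.26 did not pass. Akr1c19, an aldo-keto reductase at -19.47 Mb, did the reverse in liver, with 959.8, 1037 and 951 in B6 wild-type, 1596, 1521 and 1704 in B6 Hfe-/-, 757, 746 and 973 in D2 wild-type and 500.5, 409.7 and 371 in D2 Hfe-/- livers. Here the Hfe-/- livers of the strains moved apart, to a strain difference of -1.92 from one of -0.26 in the wild types. Its D2 fall was larger in duodenum, from 2323, 1902 and 2267 to 423, 558 and 545.5 (log2 difference -2.09, SE 0.16, adjusted p = 0.000112), which was -2.17 within a station, with no B6 change called (-0.10, adjusted p = 0.964).

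**Figure D5:**
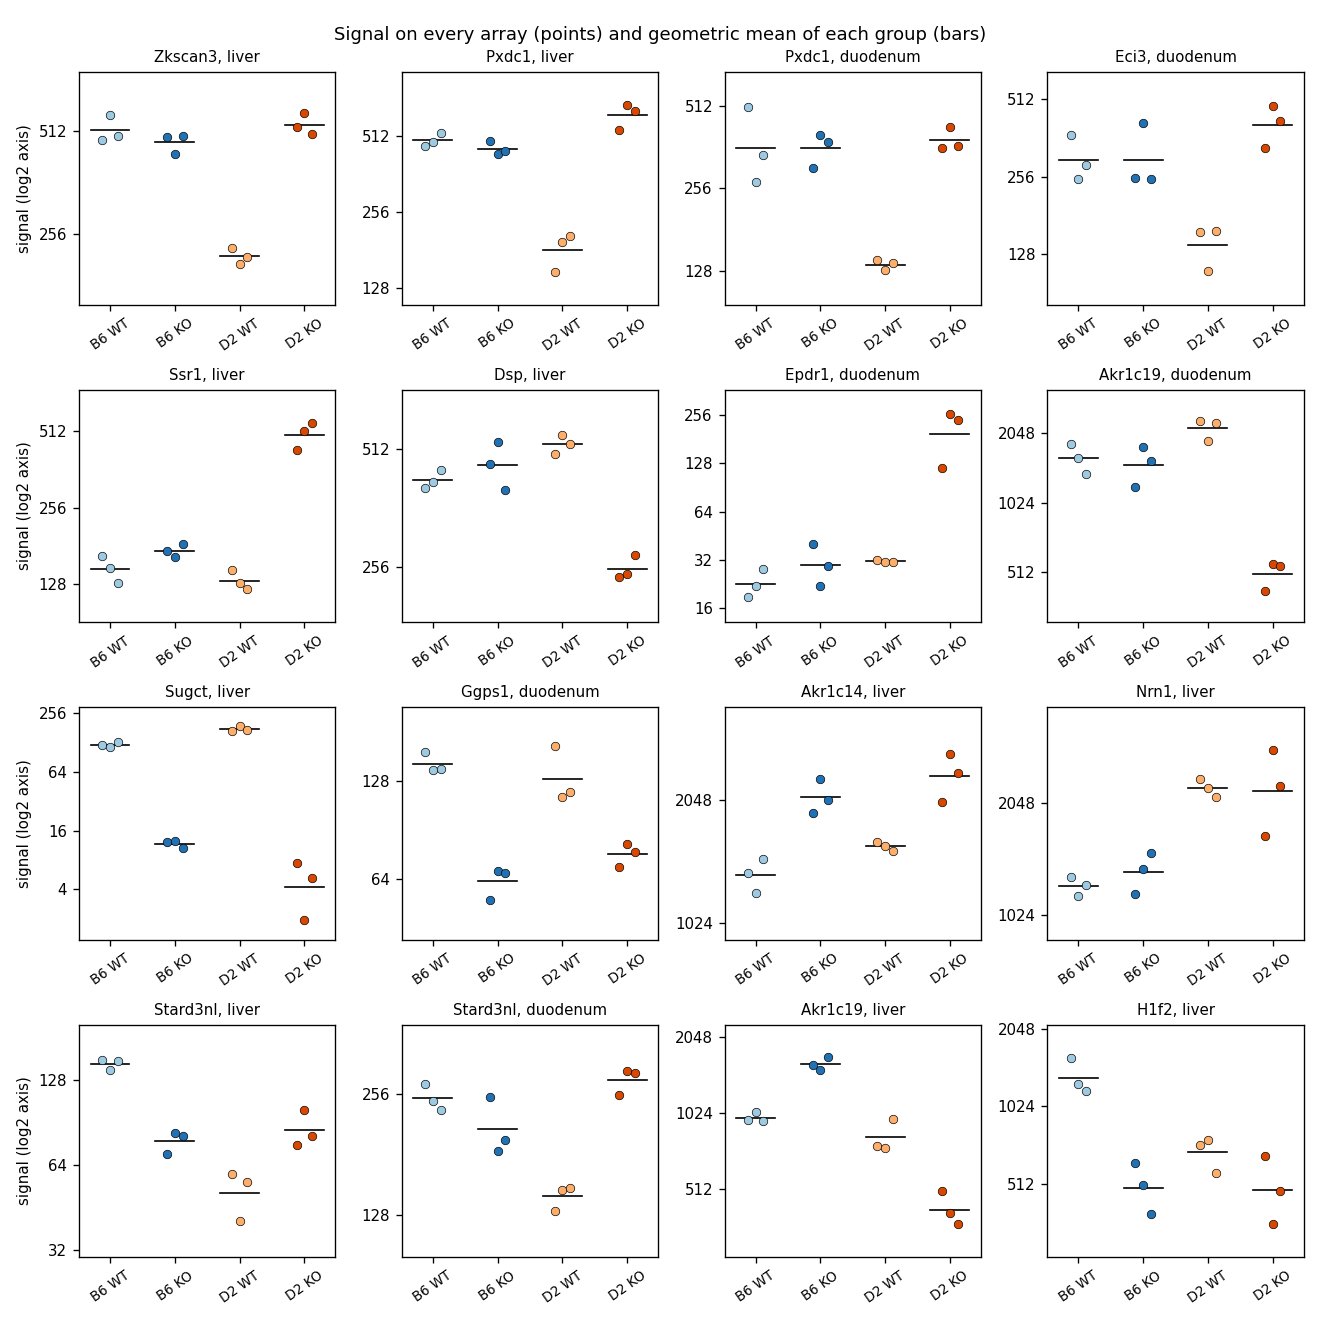
Signal on each array (points, vertical axis on a log2 scale) and geometric mean of each group of 3 (bars) for genes that were low in D2 wild-type mice (top row), set apart in D2 Hfe-/- mice (next row), changed by genotype in both strains or, for Nrn1, by strain in both genotypes (row below it), or moved in B6 or in opposite directions in liver (bottom row). The bottom row also shows Stard3nl in duodenum, where a rise was called in D2 mice only. In the top row the D2 wild-type arrays are the lowest of the 12 in each panel, and in the next row the D2 Hfe-/- arrays lie outside the range of the other 9.

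The interaction, the D2 effect of Hfe disruption minus the B6 effect, tested whether the effects differed between strains. Near Hfe 7 probe sets were called in liver (2.66%, against 0.214% of all), 5 of them positive (0.118% of all) and 2 negative (0.0962%). They were Serpinb6b (2.85), Pxdc1 (1.89), Ssr1 (1.67), Stard3nl (1.64), Zkscan3 (1.40), Dsp (-1.18) and Akr1c19 (-1.66), with adjusted p between 0.000558 and 0.0212. In duodenum 2 were called (0.76%, against 0.0143%), Stard3nl at 1.22 (0.0107% of all were positive) and Akr1c19 at -2.00 (0.00356% negative). There the call of Stard3nl was lost in 12 of 19 alternatives and that of Akr1c19 in 1. Other genes described above did not pass the interaction test, so that a difference between strains was not shown for them. The adjusted p of the interaction was 0.105 for Agtr1a, 0.122 for Cmah and 0.223 for Mplkip in liver, and 0.149 for Pxdc1, 0.165 for Epdr1, 0.185 for Eci3 and 0.32 for Mplkip in duodenum. Serpinb6b, a protease inhibitor at 9.25 Mb, had low signals, from 16.8 to 27.2 in D2 wild-type to 56 to 128.5 in D2 Hfe-/- livers and from 44.2 to 70.5 to 25.8 to 37.5 in B6 livers.

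Of the 6 tested genes nearest Hfe on each side, H1f2 and Slc17a3 were called between genotypes at their brightest probe set. H1f2 was called in B6 liver, where 1.02% of all probe sets were, and Slc17a3 in D2 liver, where 2.75% were. H1f2, a linker histone whose start lies 36.8 kb from that of Hfe, fell in B6 liver in 2 of its 3 probe sets. One of these read 1577, 1254 and 1171 in B6 wild-type, 616, 507 and 394 in B6 Hfe-/-, 729, 763 and 567 in D2 wild-type and 656, 361 and 481 in D2 Hfe-/- livers, so that B6 wild-type livers stood above all others (log2 difference -1.41, SE 0.20, adjusted p = 0.00548), or -1.10 within a run, and the D2 difference was -0.49 (adjusted p = 0.294). In B6 duodenum the other of them read 967, 986 and 981 in wild-type and 658, 642 and 629 in Hfe-/- mice, with no overlap but no call (-0.61, adjusted p = 0.814). Of the SLC17 transporters next to it, Slc17a3, a transporter of urate and organic anions at 0.13 Mb, rose in D2 liver from 453, 462 and 543 to 656, 796 and 776 (log2 difference 0.61, SE 0.14, adjusted p = 0.0488). Slc17a2 and Slc17a1, at 0.10 and 0.17 Mb, had -0.11 and -0.45 there and were not called. Farther out on the same side, Scgn (0.58) and Carmil1 (0.55) were not called in D2 liver. On the other side, the 6 nearest genes tested (C230035I16Rik, Abt1, Zfp322a, Prss16, H2bc22 and Zkscan8, from -0.27 to -2.19 Mb) had log2 differences of -1.18 to 0.84 in D2 liver, with adjusted p of 0.345 or more at their brightest probe set, and a dimmer probe set of Zkscan8 was called (1.43).

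Among the gene families, the aldo-keto reductases, which act on steroids and other carbonyl compounds, lie near the lower edge of the interval. Of 9 such genes on the array 8 were tested, with 10 probe sets. In D2 liver 2 rose (Akr1c14 and Akr1c20, against 1.35% of all probe sets) and 1 fell (Akr1c19, against 1.4%), with a median of 0.138 against 0.021 over all probe sets. In B6 liver 2 rose (Akr1c14 and Akr1c19), against 0.542% of all. Between the strains of the Hfe-/- livers 3 were lower in D2 (Akr1c12, Akr1c13 and Akr1c19, against 2.42% of all) and 1 higher (Akr1c20, against 2.31%). Both calls of Akr1c20 were for the dimmer of its 2 probe sets. The brighter gave 0.02 between the D2 genotypes in liver. Between the strains it gave 0.69 in wild-type and 0.70 in Hfe-/- livers, neither called. The aldo-keto reductases are closely related in sequence, and the signal of one probe set may include a neighbor. In the families that follow, counts for D2 liver stand against 1.35% of all probe sets higher and 1.4% lower. Of 8 zinc finger genes 6 were tested, with 10 probe sets, and in D2 liver Zkscan3 and Zkscan8 rose, the latter at low signals of 38.1, 72.9 and 47.2 against 18.3, 15.4 and 24. Of 11 clade B serpins 6 were tested, with 8 probe sets, Serpinb6b being higher and Serpinb1a lower in D2 Hfe-/- liver. Serpinb1a read 59.2, 48.9 and 28.2 in D2 wild-type and 36, 2.5 and 2.94 in D2 Hfe-/- livers, a wide spread. Of 7 genes listed for the secretory pathway all were tested, with 12 probe sets, and 4 of these rose in D2 liver. Those were for Ssr1, Ero1b and Tmem14c, the last of which encodes a mitochondrial membrane protein of heme synthesis and does not act in secretion. Of 11 genes of lipid metabolism 10 were tested, with 17 probe sets, and in D2 duodenum 5 rose (Epdr1, Stard3nl and Eci3, against 0.257% of all) and 1 fell (Ggps1, against 0.121%). None of these 6 calls was left without D2 Hfe-/- 2 and 3. Of 7 histone genes 2 passed the filter, and of the 18 genes of the prolactin family none did.

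The effect in liver and in duodenum came from the same 12 mice. Of the probe sets called in D2 Hfe-/- mice near Hfe, 6 were called in both tissues and all 6 in the same direction, which is 21.4% of those of liver and 46.2% of those of duodenum, against 15 of 773 (1.94%) and of 106 (14.2%) over all probe sets. They were Pxdc1, Zkscan3, Mplkip and Stard3nl, which rose, and Akr1c19 and Mcur1, which fell. Without duodenum arrays D2 Hfe-/- 2 and 3 the duodenum calls of the 4 that rose were lost, and 2 were left, Akr1c19 and Mcur1, against 4 of the 27 then called over all probe sets. In liver the call of Mplkip was lost in 11 of 17 alternatives and that of Mcur1 in 10 of 18. In duodenum the call of Mplkip was lost in 4 of 18 and that of Mcur1 in 11 of 19. Mcur1, a regulator of the mitochondrial calcium uniporter at 19.84 Mb, read 637, 545 and 586 in B6 wild-type, 633, 675 and 511 in B6 Hfe-/-, 739.9, 598 and 596 in D2 wild-type and 536, 406 and 450.4 in D2 Hfe-/- livers, and in D2 duodenum it went from 1203, 1125 and 1185 to 608, 849 and 811 (log2 difference -0.65, SE 0.13, adjusted p = 0.0839). Its other probe set rose in D2 liver (0.84), so the probe sets of this gene disagreed. Nrn1, the neuritin of outgrowing neurites at 13.02 Mb, differed by strain in liver. In liver it read 1297, 1148 and 1234 in B6 wild-type, 1165, 1365 and 1502 in B6 Hfe-/-, 2383, 2260.0 and 2136 in D2 wild-type and 1668, 2851 and 2279 in D2 Hfe-/- livers, with both D2 groups above both B6 groups, and in duodenum 82.3 to 99.2 in D2 wild-type mice and 27.3 to 56.5 in all others. There the D2 Hfe-/- mice were lower than the D2 wild-type mice (log2 difference -1.06, SE 0.22, adjusted p = 0.095), a call lost in 13 of 18 alternatives.

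The remaining calls were smaller or rested on 1 comparison. Lgals8, a galectin that binds sugars of damaged vesicles, fell in B6 liver in both of its probe sets, the first of which went from 949.9, 1152 and 976 to 700.1, 665 and 729 (log2 difference -0.55, SE 0.12, adjusted p = 0.0684). Tubb2a, a beta tubulin, rose in B6 liver from 283, 327 and 223 to 382, 949 and 584 (log2 difference 1.12, SE 0.26, adjusted p = 0.08), and by 0.48 between the B6 wild-type livers and B6 Hfe-/- 1 of the same run. Bphl, a serine hydrolase, was higher in D2 than in B6 Hfe-/- livers, at 1474, 1637 and 1683 against 1043, 956 and 965 (log2 difference 0.69, SE 0.09, adjusted p = 0.000126). Inhba, a subunit of activin, was likewise higher in D2 Hfe-/- livers, at 105, 171 and 172 against 82.4, 42.8 and 56 (log2 difference 1.32, SE 0.27, adjusted p = 0.00476). Slc22a23, an orphan transporter of the organic ion family, was higher in D2 wild-type liver, at 557, 531 and 456 against 265, 302.5 and 281.5 (log2 difference 0.86, SE 0.15, adjusted p = 0.00195). For Bphl and Slc22a23 all D2 livers of either genotype lay above all B6 livers, though each strain difference was called in 1 genotype only. In duodenum Cdkal1, a tRNA-modifying enzyme, and Rreb1, a zinc finger transcription factor, were higher in D2 than in B6 Hfe-/- mice by 1.02 and 1.12 on the log2 scale in 1 probe set each. Both calls were lost in 14 of 18 alternatives, among them the one without D2 Hfe-/- 2 and 3, and other probe sets gave -0.10 for Cdkal1 and down to -0.225 for Rreb1.

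Probe sets of 1 gene disagreed in direction or size for many of the genes named, among them Zkscan3, Mplkip, Sugct, Ssr1, Dsp and Mcur1. Ggps1 ran from -1.20 to 0.02 in B6 duodenum, Tubb2a from 0.14 to 1.12 in B6 liver, Akr1c20 from 0.02 to 0.97 in D2 liver, and Bphl from -0.01 to 0.69 between the strains of Hfe-/- liver. A probe has a fixed sequence, and a strain difference under it and a difference in transcript level cannot be told apart from these signals.

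Counts near Hfe depended on single arrays. The share near Hfe exceeded that over all probe sets in every alternative run for D2 and B6 liver, the liver interaction and D2 duodenum, in 18 of 19 for the duodenum interaction and in 12 of 19 for B6 duodenum. In D2 liver the count of 28 became 9 without D2 Hfe-/- 2, 10 without D2 Hfe-/- 3, and 13, 12 and 18 without D2 wild-type 1, 2 and 3, and with hybridization run as a block it was 7, or 2.66% against 0.388% of all. The share near Hfe was at least 2.27 times that over all probe sets in these 18 alternatives. In D2 duodenum the count of 13 became 25, 5 and 7 without D2 Hfe-/- 1, 2 and 3, 8 without B6 wild-type 2, and 7 without D2 wild-type 1. Without both arrays of low acinar signal it was 3, or 1.14% against 0.0962%, and the share near Hfe was the higher in each of 19 alternatives, by 3.41 times or more. In B6 liver 4 were called without B6 wild-type 2. The single call in B6 duodenum, Ggps1, was lost without B6 wild-type 1, 2 or 3 or B6 Hfe-/- 1, without both arrays of low acinar signal, and with run or replicate number as a block. Within a run, all 28 probe sets called in D2 liver kept their direction between D2 wild-type 3 and the D2 Hfe-/- livers. So did all 9 of B6 liver between the B6 wild-type livers and B6 Hfe-/- 1. Within a station, all 13 of D2 duodenum did between D2 wild-type 3 and the D2 Hfe-/- duodena. The calls were made on these same arrays, so a change of direction was unlikely, and this does not test an effect of run or station.

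Between the strains, the share near Hfe was above that over all probe sets in few alternatives. That was so in 3 of 18 for wild-type liver and 5 of 18 for Hfe-/- liver. For wild-type duodenum it was so in 0 of 19, and for Hfe-/- duodenum in 1 of 19. The strain count in wild-type liver of 10 was 6 without B6 wild-type 2, 6 without D2 wild-type 1 and 5 without D2 wild-type 2. In Hfe-/- liver it went from 12 to 6 without B6 Hfe-/- 2 and to 7 without D2 Hfe-/- 2 or 3. The number called in both genotypes in liver was 2 without B6 wild-type 1 or B6 Hfe-/- 3, and 0 without B6 wild-type 2, B6 Hfe-/- 2, D2 wild-type 1, D2 Hfe-/- 2 or D2 Hfe-/- 3. In Hfe-/- duodenum the count of 8 was 14 without D2 Hfe-/- 1, 4 without D2 Hfe-/- 2 or B6 Hfe-/- 3, 5 without B6 wild-type 2, B6 Hfe-/- 1 or B6 Hfe-/- 2, and 2 without D2 Hfe-/- 2 and 3 together. The liver interaction count of 7 became 17 without D2 Hfe-/- 1. In duodenum the interaction count of 2 was 15 without D2 Hfe-/- 1 and 4 without D2 wild-type 3, and 1 without B6 wild-type 1 or 3, B6 Hfe-/- 2 or 3, D2 wild-type 1, or D2 Hfe-/- 2 or 3. In D2 liver Ssr1, Sugct, Pxdc1, Dsp, Agtr1a, Zkscan3 and Akr1c19 remained called in all 18 alternatives, in B6 liver H1f2, Sugct and Akr1c19 did, and in D2 duodenum Akr1c19 did in all 19. The other D2 calls in duodenum named above were each lost in at least 1, Pxdc1, Stard3nl and the most changed probe set of Epdr1 only without both low-acinar arrays.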

How the data were processed

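Liver and duodenum RNA of 12 mice was measured on 24 Affymetrix Mouse Genome 430 2.0 arrays. The intensity values are probe set signals that the authors computed with MAS5 in Bioconductor (version not given in the sources used here) and deposited on a linear scale, and no detection calls were used. Here log2 was taken, and probe sets were kept when their third-highest signal reached 20 in liver or duodenum, which left 28061. Each tissue was fitted with limma 3.58.1 (R 4.3.3, lmFit and eBayes with trend) to 4 groups of 3 arrays, and errors are the SE of that fit. P-values were adjusted by Benjamini-Hochberg over all 28061 probe sets, with calls at 0.1 for genotype and interaction and at 0.01 for strain. An exact permutation test of 3 against 3 cannot go below 0.1. The number of arrays limits the precision.

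Genes and lists were chosen with earlier results of these data known. The text names up to 10 called genes each way per genotype comparison and 6 per strain comparison, with a group mean of at least 100 and no overlap, genes called in both tissues, the 6 nearest tested genes on each side and up to 4 per family. A gene is given by its brightest probe set unless another is named. Hybridization runs were taken as series of arrays, each hybridized at most 15 min after the one before it. Stations were those in the record of each array. Alternatives were an offset of 16, quantile normalization, other filters, run or replicate number as a block and leaving out arrays. The fit was tested on simulated data.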

Additional observations from a re-analysis of the deposited data

Results flagged for a closer look

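For 7 probe sets in liver and 2 in duodenum the effect of Hfe disruption differed between D2 and B6 mice by the interaction term of limma at an adjusted p of at most 0.1. In liver the interaction, on the log2 scale, was 1.669 for Ssr1, 2.85 for Serpinb6b, 1.89 for Pxdc1, 1.637 for Stard3nl and 1.402 for Zkscan3, all of which rose in D2 relative to B6 mice. It was -1.184 for Dsp and -1.661 for Akr1c19 in liver. In duodenum it was 1.219 for Stard3nl (adjusted p = 0.0881) and -1.998 for Akr1c19. The duodenum call of Stard3nl was lost in 12 of 19 alternatives and that of Akr1c19 in 1. Groups of 3 arrays were too small for a search for single outlying arrays.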

How the results depend on the processing

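Counts of called probe sets near Hfe moved under the alternatives. Of 1701 values of named genes under the alternatives, 1297 kept their call, 404 lost it and 0 changed direction, and of 222 counts 157 stayed within 1.5 times. The named genes had been called on the same arrays, so a change of direction was unlikely and its absence is no test of the directions. With hybridization run as a block, liver gave 7 for the D2 genotypes, 4 for the B6 genotypes, 4 for the interaction, 5 and 2 for the strains in wild-type and in Hfe-/- mice, and 0 strain differences called in both, while duodenum gave 0 for B6, 0 for the interaction, 0 for the wild-type strains and 5 for the Hfe-/- strains. The count called in both genotypes in liver was 2 with an offset of 16, with no filter and with a filter of 100. In duodenum quantile normalization gave 1 interaction and a filter of 100 gave 4 for the Hfe-/- strains. Without D2 Hfe-/- 2 and 3, chosen after seeing the data, duodenum gave 3 for D2, 0 for B6, 1 for the interaction and 2 for the Hfe-/- strains. The cause of these shifts was not tested.

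Leaving out 1 array at a time gave in liver 9 to 37 for D2, 4 to 10 for B6, 7 to 17 for the interaction, 5 to 12 and 6 to 13 for the strains in wild-type and Hfe-/- mice, and 0 to 2 called in both. In duodenum it gave 5 to 25 for D2, 0 to 1 for B6, 1 to 15 for the interaction, 3 to 6 and 4 to 14 for the strains, and 0 to 0 called in both.

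Same-numbered replicates of different groups in a tissue showed little shared deviation (r of -0.02 to 0.031 in liver and -0.158 to 0.116 in duodenum). Whether same-numbered liver and duodenum arrays of a group came from the same mouse was not tested. With the replicate block the D2 counts were 27 in liver and 9 in duodenum, the B6 count in duodenum was 0 and the interaction count there was 1.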
